A study of Mus musculus with 3 samples.

Results

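Macrophages take up, make and export cholesterol, and 8 of the genes that govern this balance were examined for predicted N6-methyladenosine (m6A) sites: Srebf1, Srebf2, Scap, Insig1, Nr1h2, Nr1h3, Abca1 and Abcg1. They were chosen by name, and every listed site inside the annotated span of a member, on the same strand, was taken. The deposited list held 19301 predicted m6A sites, and 18 of them lay in 6 of the 8 genes, while Nr1h3 and Abca1 had none. The material was poly(A)+ RNA of RAW264.7, an established mouse macrophage cell line, in 3 untreated biological replicates with no second condition. In the assay, miCLIP2, an antibody against m6A was crosslinked to 1 μg of fragmented RNA by UV light, and reverse transcription then stopped next to the crosslinked nucleotide. The authors called peaks in each replicate, kept those found in at least 2 of the replicates, scored the peaks at A with the classifier m6Aboost and listed those with a score above 0.5. The list is 1 column pooled over the replicates. It gives no read counts and no expression values, so depth at a site and the spread between replicates are unknown, no test between groups was possible, and a gene without a site cannot be told apart from one with too little RNA. The score describes the classifier's call and is no level of methylation. The classifier reads the sequence around the A, the transcript region, the relative strength of the peak and its C-to-T transitions, so motif, region and score are not independent of each other.

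In sterol-poor cells the escort protein SCAP carries the SREBP transcription factors from the endoplasmic reticulum to the Golgi apparatus, where proteases release the active part. SREBP2, from Srebf2, mainly drives genes of cholesterol synthesis and uptake, and SREBP1, from Srebf1, mainly those of fatty acid synthesis. When sterols are plentiful, INSIG proteins hold SCAP back. The liver X receptors LXRα, from Nr1h3, and LXRβ, from Nr1h2, are switched on by oxysterols and induce the exporters ABCA1 and ABCG1, the route by which a macrophage unloads cholesterol. The members are thus regulators and exporters, and no uptake receptor or enzyme of synthesis is among them. m6A is written on mRNA mainly by the METTL3 complex at DRACH motifs (D is A, G or T, R is A or G, and H is A, C or T) and is read by proteins that affect mRNA decay and translation.

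Sequences of 21 nt around the sites are shown for those on which the comparisons below turn, from 5′ to 3′ on the gene's strand with the site at the centre and its 5 central bases in capitals. All were read from GRCm38. The first set holds the sites of the SREBP genes in the final exon, since the genes are paralogs. They are given by gene and by the spliced distance in nt of the A from the first base of the stop codon, negative before it.
Srebf1, -53: ctactgctGGACTgccagcag
Srebf2, -53: tcctgcagTGACTgccagcag
Srebf1, 25: tcccttgaGGACCtttgtcat
Srebf1, 78: agcaatcaGGACCatgccgac
Srebf2, 190: ggccagtaGGACCatgggcag
Srebf2, 338: tcctctagAGACTgtctcctt
Srebf2, 627: cttacaagGGACAgccagcca
The next set holds the receptor sites, with the aligned Nr1h3 sequence, which had no listed site, for comparison.
Nr1h2, 50: ttgaagatGGACTcttcacct
Nr1h2, -533: gagattgtGGACTttgccaag
Nr1h3, -533, not listed: gagattgtTGACTttgccaaa
The last set holds the site beside the Scap stop codon, the exporter site and the sites outside DRACH.
Scap, -2: gagaaactGGACTgaaggcag
Abcg1, 95: ggtgacacAGACTctcccaac
Srebf2, -1861: gccgcagtGTACTgtcactgg
Insig1, 593: tactgccgGGAGGtttgtaga

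Among 21951 protein-coding genes with a coding transcript, 23.1% had at least 1 listed site, against 6 of the 8 members. The members were picked with earlier results of these data known, so the counts are given as a description. Where a gene was hit at all (5080 genes), the median was 3 sites and the quartiles were 1 and 5. Srebf2 held 7 sites, Srebf1 4, Scap 3, Nr1h2 2, and Insig1 and Abcg1 1 each. Of the genes with a site, 17.3% had at least as many as Srebf2 and 39.9% at least as many as Srebf1. A single site, as in Insig1 and Abcg1, was found in 25.9% of these genes. Longer transcripts hold more motifs, so each member was also read beside the protein-coding genes with at least as many DRACH motifs as it. Of these, the share with a site was 30.2% for Srebf1 and for Scap, 29.6% for Srebf2, 27.8% for Insig1, 25.7% for Nr1h2, 26.4% for Nr1h3 and 30.1% for Abcg1.

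**Figure D1:**
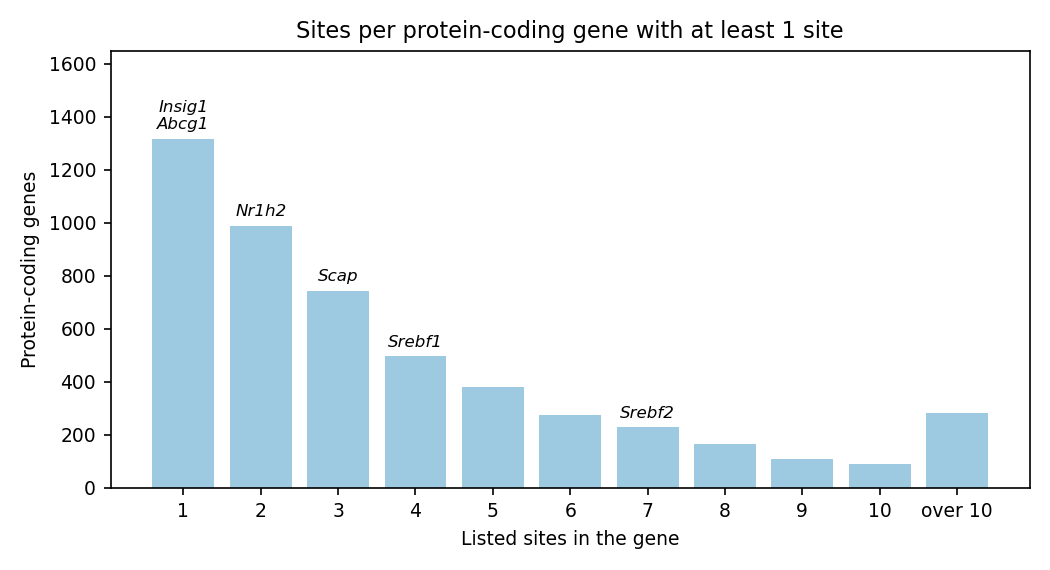
Number of protein-coding genes (vertical axis) by their number of listed sites (horizontal axis), over the 5080 genes with at least 1 site. Srebf2 has 7 sites, a number reached or passed by 17.3% of these genes, and the other 5 members with a site have 1 to 4, as do most genes; Nr1h3 and Abca1 are not drawn.

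Each site was placed on the coding transcript of its gene with the longest coding sequence (CDS). All 18 sites lay in exons of that transcript, and none lay in another annotated gene on the strand. Many were exonic in few of the annotated transcripts of their gene: the 5′ UTR site of Srebf1 in 1 of 12 and its other sites in 2, the sites of Srebf2 in 1 to 4 of 7, with 1 for that 53 nt before the stop codon, and all 3 of Scap in 1 of 10. The Insig1 site was exonic in 1 of 2, the Abcg1 site in 2 of 5 and those of Nr1h2 in 10 and 6 of 18. The CDS held 8 sites, 44.4% (95% Wilson interval 24.6 to 66.3%, counting error only), the 3′ UTR 8 as well and the 5′ UTR 2, 11.1% (3.10 to 32.8%). Placed in the same way, 19180 sites of the whole list lay at 50.2% in the CDS, at 42.6% in the 3′ UTR and at 2.18% in the 5′ UTR. Within 200 nt of the stop codon lay 8 of the 18 sites, against 32.2% of the 18212 exonic sites in the list. They fell in Srebf1, Srebf2, Scap, Nr1h2 and Abcg1, 5 of the 6 genes, and 60.5% of all genes with a site had one there. These shares depend on the low-scoring sites: over the 8 sites that scored at least 0.7, the CDS held 25%, and the 3′ UTR and the 200 nt around the stop codon 75.0% each. DRACH motifs held 16 sites, 88.9% (67.2 to 96.9%), against 91.9% of the list. GGACT was the most frequent pentamer with 6 sites, followed by GGACC and AGACT with 3 each, while these 3 pentamers made up 19.4%, 6.93% and 12.3% of the list. With so few sites, each of these intervals includes the share in the whole list except that of the 5′ UTR, which rests on 2 sites.

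**Figure D2:**
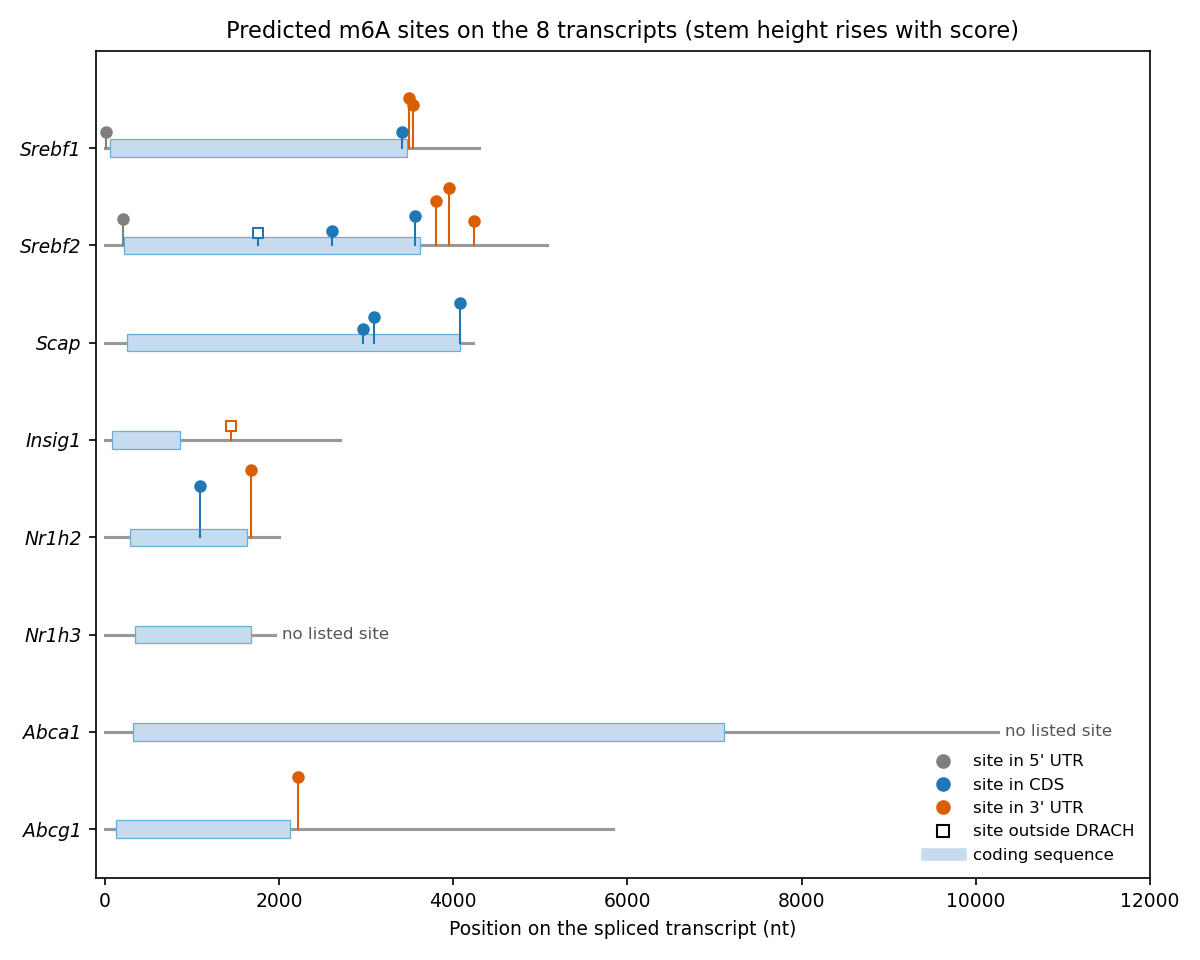
Spliced transcripts of the 8 genes to scale (horizontal axis, nt from the transcript start), with the CDS as a box and each listed site as a stem whose height rises with its score; open squares mark sites outside DRACH. Sites of Srebf1 and Srebf2 gather at the end of the CDS and in the 3′ UTR, those of Scap lie only in the CDS, and Nr1h3 and the long Abca1 transcript carry none.

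Srebf2 (chr15:82147181-82205379, plus strand, placed on ENSMUST00000023100.7) carried the most sites, although 5 of the 7 scored under 0.7 and at that minimum it had 2, as did Srebf1 and Nr1h2. Its transcript of 5077 nt has 19 exons, and 4 of the 7 sites lay in the last, which is 1683 nt long. The site with the highest score, 0.889, was at 82204253 in the 3′ UTR, 338 nt after the start of the stop codon, and 89.0% of the whole list scored lower. The flanking 3′ UTR sites at 82204105 and 82204542, 190 and 627 nt after that point, scored 0.778 and 0.611. In the CDS, the site 53 nt before the stop codon, at 82203862, scored 0.653. The remaining coding sites had low scores: 0.524 at AAACC at 82194084 in exon 13, and 0.504 at GTACT, outside DRACH, at 82178893 in exon 8. The latter was close to the threshold of the list, with 0.845% of all sites scoring lower. A site at GGACT at 82147383, with a score of 0.626, lay in the 5′ UTR in exon 1, at nt 203 of the transcript and 20 nt before the start codon.

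Srebf1 (chr11:60199089-60222581, minus strand, placed on ENSMUST00000020846.7) had 3 of its 4 sites close together around the stop codon in the last of 19 exons, which is 1063 nt long. The coding site at 60199977, at GGACT, scored 0.537. The 3′ UTR sites followed at 60199899 and 60199846, 25 and 78 nt after the start of the stop codon, both at GGACC, with scores of 0.826 and 0.769. These are the only sites of the 8 genes that had another listed site within 100 nt, 3 of 18, or 16.7% (95% Wilson interval 5.84 to 39.2%). In the whole list 60.0% of the exonic sites had a neighbour that close. That share counts every site, so genes with many sites weigh more in it, and the single sites of Insig1 and Abcg1 could have no neighbour. The shares were not matched for the number of sites per gene. The remaining site, at 60220592 with a score of 0.540, lay at nt 13 of the transcript. Sites within 20 nt of the annotated transcript start made up 0.0549% of the exonic sites in the list. In mouse embryonic stem cells the paper saw signal at transcript starts that persisted without Mettl3. It attributes this, as likely, to m6Am, a related modification at the 5′ cap that the antibody also binds. Whether this holds for the site at nt 13 was not tested. A 5′ UTR site, as found in both SREBP genes, was present in 5.59% of the genes with a site.

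The paralogs Srebf1 and Srebf2 shared a listed position. When their coding sequences were aligned base by base, 63.9% of 3214 paired bases were identical, and the coding sites 53 nt before the stop codon were paired with each other. The alignment paired none of the other Srebf2 coding sites with a listed site: the A of AAACC was paired with a base within ACATC, and GTACT fell in a gap. At the shared position the A was the middle base of a GAC codon in exon 19 of both genes. The sequence GACTGCCAGCAG, 12 nt that run from the base before the A to the end of the printed windows, was identical, whereas the pentamers were GGACT in Srebf1 and TGACT in Srebf2. Downstream of the A, where the miCLIP2 reads start, the identity ended after 13 nt. A site at exactly this distance from the stop codon was present in 0.354% of the 5080 genes with a site, 18 genes in all, Srebf1 and Srebf2 among them. The distance was picked because these genes share it, and any single nt holds a small share: the 100 nt before the stop codon together held 1342 sites. Whether the shared position is unusual was not tested. The score was 0.537 in Srebf1 and 0.653 in Srebf2, both below the list's median of 0.734. In the 3′ UTR, the sites 78 nt after the stop codon in Srebf1 and 190 nt after it in Srebf2 shared the 9 nt AGGACCATG, the longest run among the other pairs of windows of these genes, and scored 0.769 and 0.778. This pair was picked as the longest of all pairs, and a common motif at the centre already gives shared bases. The Srebf1 site at 25 nt and the same Srebf2 site shared the 6 nt AGGACC. Whether the longer run has a common origin was not tested.

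**Figure D3:**
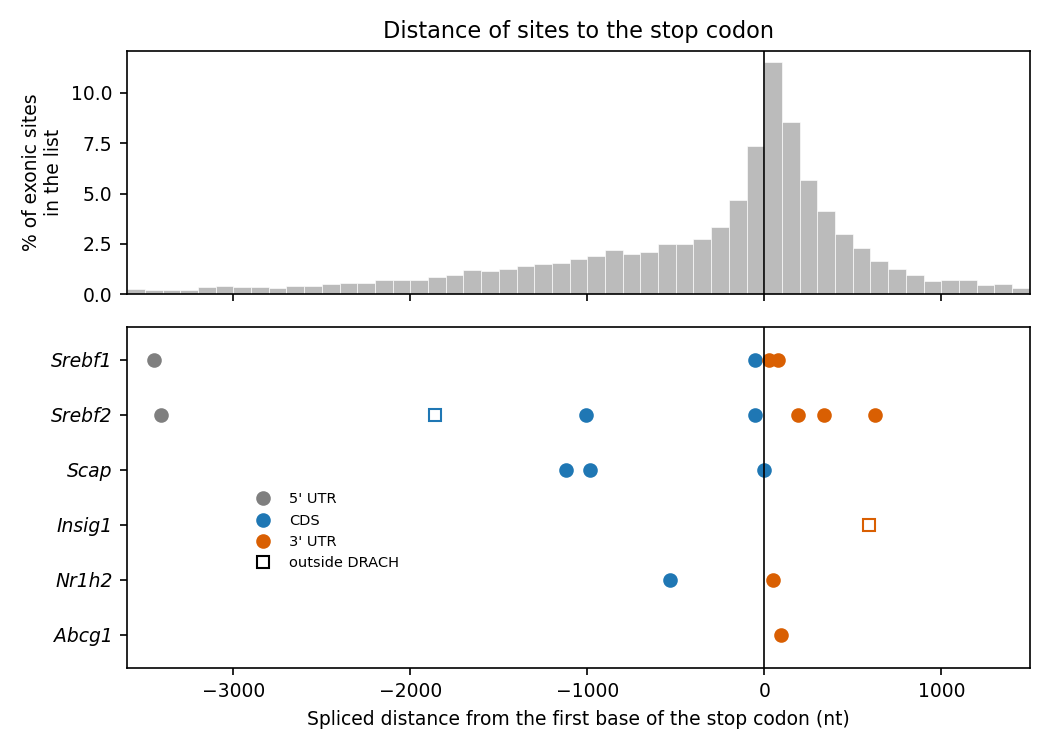
Spliced distance from the first base of the stop codon (horizontal axis, nt), above as the percentage of the list's exonic sites per 100 nt and below for each of the 18 sites by gene, with open squares for sites outside DRACH. Sites of Srebf1 and Srebf2 stand above each other at -53 nt, the Scap site falls next to the stop codon, and the sites of Nr1h2 and Abcg1 in the 3′ UTR lie 50 and 95 nt after it.

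Scap and Insig1 encode the escort and its retention factor. Scap (chr9:110333288-110384950, plus strand, placed on ENSMUST00000098350.9) had 3 sites, all of them in the CDS, which holds 78 DRACH motifs in 3828 nt against 7 in the 149 nt of its 3′ UTR. The one with the highest score, 0.737, at 110384797 in the last exon, lay 2 nt before the stop codon. It was the middle base of the final codon, GAC, and the last base of its GGACT pentamer was the first of the stop codon TGA. A site in the stop codon or the codon before it was present in 3.58% of the genes with a site. The others, at 110381235 and 110381366 with scores of 0.515 and 0.618, were 131 nt apart in exon 17, which at 514 nt is the longest internal exon of the transcript, against a median of 158 nt. Insig1 (chr5:28071363-28078662, plus strand, placed on ENSMUST00000059155.10) had a single site at 28077411, 593 nt after the start of the stop codon in a 3′ UTR of 1842 nt. This site lay at GGAGG, outside DRACH and without the C after the A, and scored 0.520, with 3.95% of the list below it. The pentamer GGAGG held 6 of the 19301 sites. The 3′ UTR of Insig1 contained 36 DRACH motifs, and none of them was listed. Insig1 was therefore among the 1.83% of genes with a site that had none at DRACH.

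The receptors split by paralog. Nr1h2 (chr7:44549616-44553951, minus strand, placed on ENSMUST00000073488.11) carried the highest score of the 8 genes, 0.979, at GGACT at 44549937, 50 nt after the start of the stop codon in the 3′ UTR. Of the whole list, 0.404% scored at least as high. Its coding site at 44551397 in exon 7 of 10 scored 0.841. Nr1h3 (chr2:91184061-91202834, minus strand, placed on ENSMUST00000111356.7) had no site, and its transcript of 1955 nt contained 32 DRACH motifs against 23 in the 1999 nt of Nr1h2. Of the protein-coding genes with at least as many DRACH motifs as Nr1h3, 26.4% had a site. Within 20 kb outside Nr1h3 lay 4 listed sites, 1 of them on its strand. In the alignment of the Nr1h2 and Nr1h3 coding sequences 71.9% of 1260 paired bases were identical. The A of the coding site in Nr1h2 was paired with an A of Nr1h3 at the same distance from the stop codon, -533 nt. There 19 of the 21 bases around it were the same, and the Nr1h3 pentamer TGACT is a DRACH motif too, but it was not listed. The list does not say whether reads covered this motif. In the CDS of all genes with a site, 4.55% of the DRACH motifs were listed.

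The exporters carried 1 site between them. Abca1 (chr4:53030787-53159895, minus strand, placed on ENSMUST00000030010.3) has the longest transcript of the members, 10262 nt with a 3′ UTR of 3156 nt. Its 231 DRACH motifs, 13 of them within 200 nt of the stop codon, were all unlisted, and no site of either strand lay within 20 kb outside the gene. At least as many DRACH motifs were present in 283 protein-coding genes, and 27.9% of these had a site. Abcg1 (chr17:31057675-31117988, plus strand, placed on ENSMUST00000024829.7) had 1 site at 31114378, at AGACT 95 nt after the start of the stop codon. It scored 0.848, with 79.0% of the list below it, and was the only listed one of 104 DRACH motifs in the transcript.

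Set against the motifs that could have been listed, 16 of 689 DRACH motifs on the 8 transcripts, or 2.32%, held a site. On all protein-coding transcripts chosen in the same way 1.24% did. Over the 6 members with a site it was 16 of 426, or 3.76%, against 4.63% over all genes with a site. The share was 8.70% for Nr1h2, 7.69% for Srebf2, 4.55% for Srebf1, 3.41% for Scap, 0.962% for Abcg1 and 0% for Insig1, whose site is outside DRACH. The middle 50% of the genes with a site ranged from 2.04% to 7.89%. By region, the 6 members with a site had 7 of 255 motifs listed in the CDS, 7 of 158 in the 3′ UTR and 2 of 13 in the 5′ UTR, shares of 2.75%, 4.43% and 15.4%. In all genes with a site the shares were 4.55%, 4.99% and 2.35% in the same order. Within 200 nt of the stop codon 12.7% of the motifs were listed in the genes with a site. There Srebf1 had 3 of 7 listed, Srebf2 2 of 6, Nr1h2 1 of 5, Abcg1 1 of 11 and Scap 1 of 16, while Insig1 had 0 of 7, Nr1h3 0 of 5 and Abca1 0 of 13.

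The scores of the 18 sites ranged from 0.504 to 0.979 with a median of 0.640, against 0.734 in the list, and 8 of them lay at or above the list's median. By region, the 8 sites in the 3′ UTR had a median of 0.802, against 0.787 for the list in this region. The 8 in the CDS had a median of 0.577, against 0.70. The values of the regions overlapped, with the 3′ UTR running from 0.520 to 0.979 and the CDS from 0.504 to 0.841. A score of at least 0.9 was reached by 8.77% of the list and by 1 of the 18 sites, in Nr1h2.

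**Figure D4:**
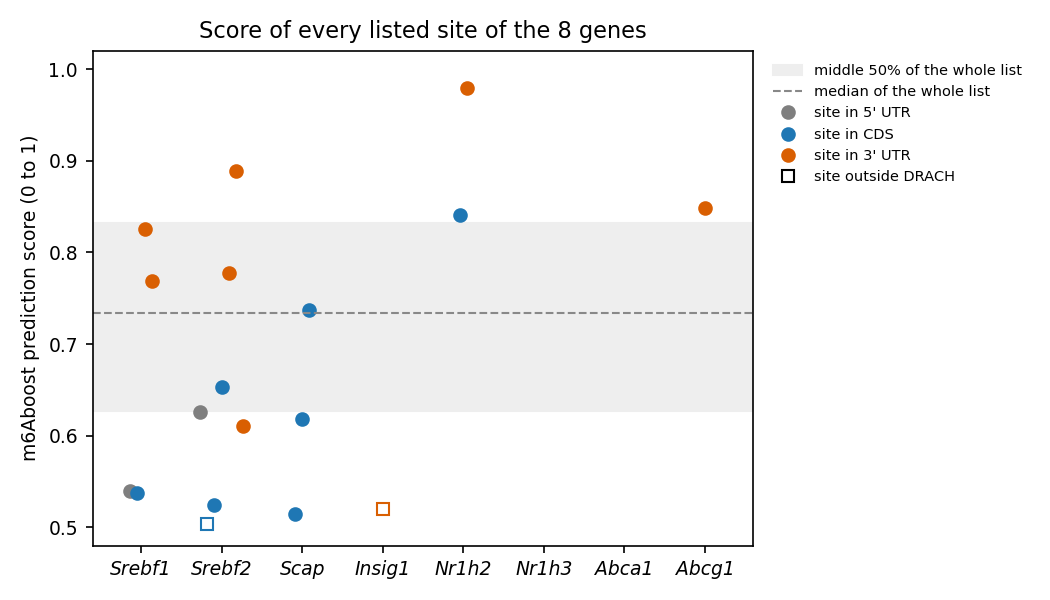
Prediction score (vertical axis) of each of the 18 sites, grouped by gene and coloured by region, with open squares for sites outside DRACH. The shaded band, 0.627 to 0.832, is the middle 50% of the whole list and the dashed line its median of 0.734; both Nr1h2 sites, the Abcg1 site and the Srebf2 site at 0.889 lie above the band, and both sites outside DRACH lie below it near 0.5, as do several DRACH sites.

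To place the members in their pathway, 59 further genes were read in the same way, in 6 lists by role. The lists were drawn up with earlier results of these data known, and some of their genes were left out of every count, so the shares describe the genes kept. Of these, 32 had at least 1 site, 54.2%, with 119 sites in all, of which 108 were at DRACH, 60 in the 3′ UTR and 46 within the coding sequence. The share by list is to be read beside the 23.1% of all protein-coding genes, and expression, which the list does not give, was not taken into account.

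In the synthesis of cholesterol, 12 of 18 genes had a site, with 15 of the 25 sites in the 3′ UTR and none of these genes holding more than 3. Lss, which closes the sterol rings, had 3 in the 3′ UTR, with scores from 0.753 to 0.881. Sqle, which oxidises squalene in the step before, had 3, of which 2 were in the 5′ UTR, with scores from 0.652 to 0.922. Cyp51, which removes a methyl group from lanosterol, had 3 in the 3′ UTR, with scores from 0.507 to 0.887. Msmo1 also had 3 sites, Hmgcs1, Pmvk, Mvd, Ebp and Dhcr7 had 2, and Mvk, Fdps and Hsd17b7 had 1. Acat2, Idi1, Fdft1, Tm7sf2, Nsdhl and Sc5d had none.

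Among the genes of lipoprotein uptake, 5 of 8 had a site, and 21 of their 29 sites lay in the CDS. Lrp1, a large endocytic receptor, had 16, of which 15 were in the CDS, with scores from 0.562 to 0.757. Msr1, a scavenger receptor of macrophages, had 7, of which 4 were in the CDS and 3 in no exon of the chosen transcript, with scores from 0.543 to 0.803. Scarb1, a receptor for high-density lipoprotein, had 4 in the 3′ UTR, with scores from 0.628 to 0.813. Cd36 and Lrp8 had 1 each, while Vldlr, Olr1 and Mylip had none.

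Of the other regulators of SREBP processing, 4 of 7 had a site. Mbtps1, the first protease that cuts SREBP in the Golgi apparatus, had 12 sites, 5 of them in the 5′ UTR, with scores from 0.550 to 0.957. Rnf145, which encodes a ubiquitin ligase, had 9, of which 6 lay within 200 nt of the stop codon, with scores from 0.501 to 0.956. Ube2g2, which encodes a ubiquitin-conjugating enzyme, had 4 in the 3′ UTR, with scores from 0.721 to 0.912. Rnf139 had 2, both inside a further annotated gene on the strand. Mbtps2, the second protease, Insig2 and Ufd1 had none. Among LXR partners and coregulators, 2 of 5 had a site. The corepressor gene Ncor1 had 5, of which 4 were in the CDS, with scores from 0.560 to 0.882. The partner receptor Rxrb had 4 in the 3′ UTR, with scores from 0.659 to 0.931, while Rxra, Rxrg and the coactivator Ncoa1 had none.

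In intracellular transport and storage, 9 of 11 had a site, led by Stard3, whose product moves sterol between endosome and endoplasmic reticulum, with 6, all in the 3′ UTR with scores from 0.778 to 0.933. Nceh1, a hydrolase of cholesterol esters, had 5, of which 3 were in the 3′ UTR, with scores from 0.525 to 0.923. Gramd1a, which encodes a sterol carrier at contacts with the plasma membrane, had 4 in the 3′ UTR, with scores from 0.720 to 0.916. Gramd1b and Lipa also had 4, Npc2 and Osbp 2, and Npc1 and Stard4 1. The esterifying enzymes Soat1 and Soat2 had none. None of the 10 genes of efflux and oxysterol metabolism had a site: Apoe, Apoc1, Lcat, Pltp, Abcg4, Abca7, Ch25h, Cyp27a1, Cyp7b1 and Cyp46a1.

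**Figure D5:**
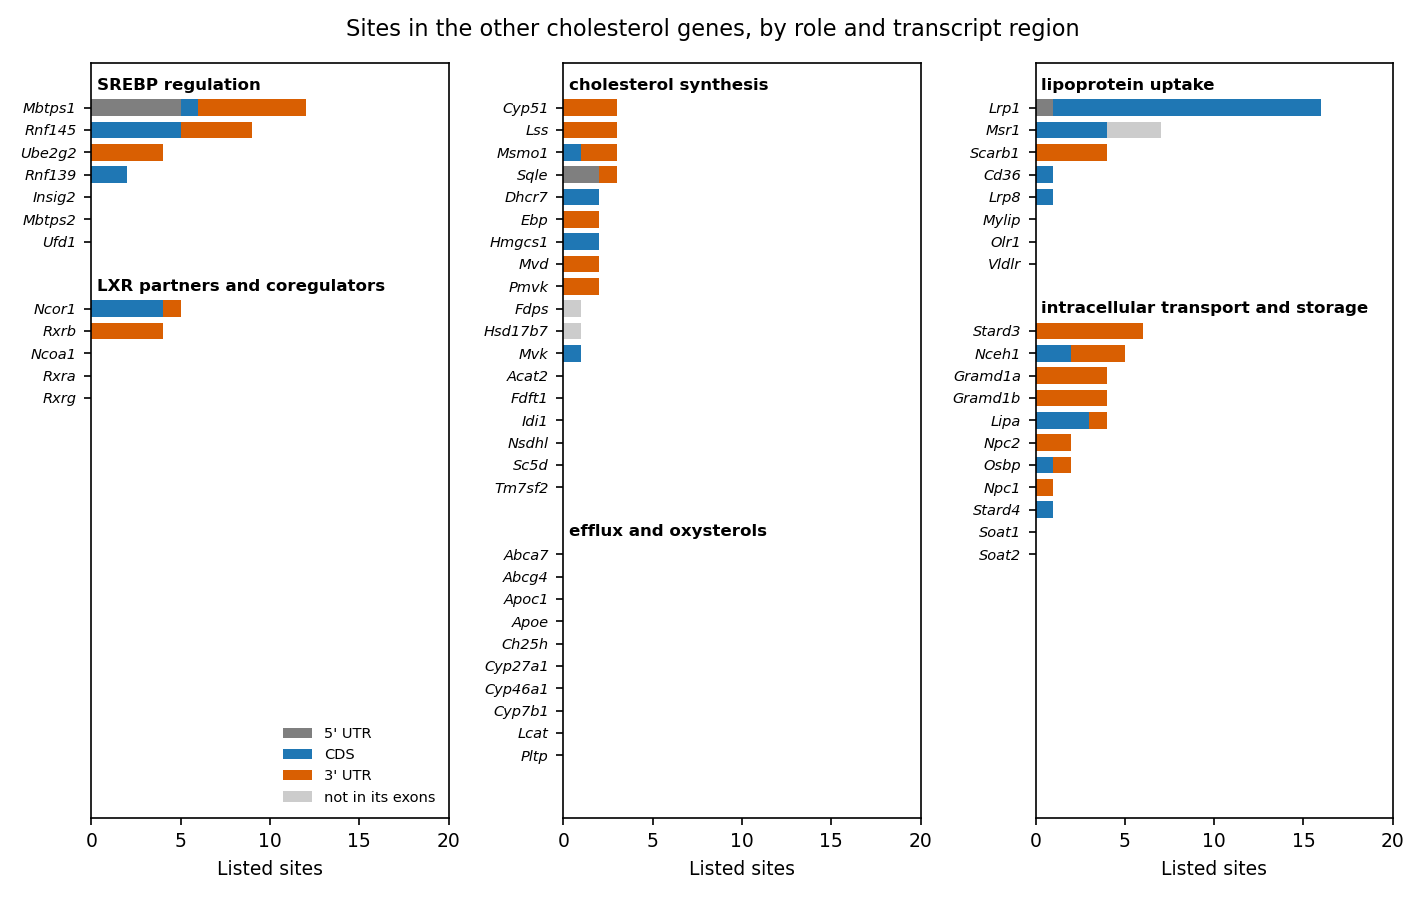
Number of listed sites (horizontal axis) of each of the 59 further cholesterol genes, grouped by list and coloured by transcript region, with sites in no exon of the chosen transcript in light grey. Lrp1, Mbtps1 and Rnf145 carry the most sites, 16, 12 and 9, and the 10 genes of efflux and oxysterols carry none.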

How the data were processed

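Poly(A)+ RNA of untreated RAW264.7 cells was profiled by miCLIP2 in 3 biological replicates. Per the labels and the study's methods, the authors mapped reads with STAR 2.7.3a to GRCm38.p6, handled alignments with SAMtools 1.9, removed duplicates with UMI-tools 1.0.0, separated off reads that carried a C-to-T transition, ran PureCLIP on each replicate and scored peaks at A with m6Aboost. The deposited unit is this score, pooled over the replicates. The deposited list gives no counts, so depth per site is unknown.

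The start was read as 0-based, since all 19301 sites were then at A. GENCODE M21 (GRCm38) served as annotation, whereas the authors used a later release. A member's sites lay inside its span on its strand and were placed on the transcript with the longest CDS, ties going to the longest spliced transcript. Bases of the stop codon were counted as CDS. Coding sequences were aligned globally (match 2, mismatch -1, gap opening -6, gap extension -0.5, free end gaps). Python 3.11.15, NumPy 2.4.6, SciPy 1.17.1, Biopython 1.88, pysam 0.24.0 and matplotlib 3.10.9 were used. The placement was tested on 3000 simulated positions and recovered all of them. The members and lists were chosen with earlier results of these data known. Every member was named, and score ranges and regions were given for up to 3 genes with most sites of each pathway list (ties went to the higher mean). Some genes of these lists are not reported here, and every count over a list covers the genes that were kept. Results were recomputed with minimum scores, collapsed sites, other transcripts, window sizes, a narrower motif, the start read as 1-based and sites in a single gene only. Sequences of proteins were not used here.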

Additional observations from a re-analysis of the deposited data

How the results depend on the processing

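No paired analysis was possible because there is 1 condition and 1 pooled score per site, without values per replicate, and leaving out a replicate could not be done either. At a minimum score of 0.7, 8 member sites were left, with a median score of 0.833, all at DRACH (100%), 75.0% in the 3′ UTR and 75.0% within 200 nt of the stop codon, and 5 members kept a site, Insig1 losing its own. Srebf2 then had 2 sites, as many as Srebf1 and Nr1h2, so that its lead in sites rests on those scoring lower, and Scap and Abcg1 had 1. At 0.9, 1 member site (score 0.979, in Nr1h2) in 1 member was left, so that DRACH, the 3′ UTR and the window at the stop codon each held 100% and the CDS 0%, and 11 of the 59 pathway genes had a site. With the start read as 1-based, 0% of the member sites were at DRACH. Fewer sites are left at a higher score by construction. Of 36 alternatives for the main values, 22 stayed within 1.5 times the main count, inside its 95% interval or, for the median score, within the SD of the sites; the other 14 are those given here. For the counts of single members 10 of 24 alternatives moved, all of them at a minimum score. Collapsing sites, the other transcripts, RRACH and other windows were among the former. Both sites 53 nt before the stop codon of Srebf1 and Srebf2 scored under 0.7 and were absent at either minimum.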
